A study of Drosophila melanogaster with 4 samples.

Results

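The Cpr genes of Drosophila encode cuticular proteins, and their transcription was examined in the S2 line, which was established from late embryos and resembles macrophages. Members were taken by symbol, as every gene whose symbol in the authors' GRO-seq table begins with Cpr followed by a digit. This gave 70 of 16612 genes, all annotated as protein-coding. GRO-seq captures RNA made by engaged polymerases in a nuclear run-on, and 5'GRO-seq keeps the capped fragments of such RNA, whose ends mark transcription starts. The series held 4 libraries of S2 cells, 2 by 5'GRO-seq, numbered as replicates 1 and 2, and 2 by GRO-seq, here Sample3 and Sample4 as in the authors' columns. No treatment or second genotype is named. Whether replicates came from separate cultures is not given, so the spread between them may be technical.

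The insect cuticle is a layered extracellular coat of chitin fibres and proteins that epidermal cells secrete on their apical side. Cpr proteins carry the Rebers-Riddiford consensus, a chitin-binding region that also defines the Lcp, Ccp, Edg, Acp65A and Pcp proteins. In the animal these genes are switched on in epidermis and other cuticle-forming tissue, in waves around each moult under the steroid hormone ecdysone. The symbol gives the cytological band of the gene, so that Cpr97Ea and Cpr97Eb are neighbours in band 97E. Most members have no described function beyond that of a structural cuticle protein.

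Values were FPKM, that is reads per kilobase of transcript span, introns included, scaled to sequencing depth. Whole reads could be recovered from them, and the scale put the normalising totals at 6572461 reads for Sample3 and 2474825 for Sample4. Recovered reads summed over all genes to 6948228 and 2978681, more than these totals, and how reads in overlapping genes were counted is not given in the sources used here. In Sample3 the median member needed 0.459 FPKM to reach 3 reads, the limit that a count of 0 allows, and in Sample4 it needed 1.22 FPKM. The 5'GRO-seq lists held 6782 start sites in replicate 1 and 9387 in replicate 2. Of 12 hemocyte markers, checked against the labelled cell type, 11 (91.7%) had a mean FPKM of 1 or more. The share was 53.5% over all genes and 57.5% over protein-coding genes. The markers were long, with a median span of 8627.5 bp, against 2017 bp for protein-coding genes. Only the 3 highest are named here. Cg25C, a collagen chain, had 276 FPKM in Sample3 and 863 in Sample4. Fer1HCH, the ferritin heavy chain, had 160 and 204, and LanB1, a laminin chain, 172 and 185.

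The Cpr family had little nascent RNA. In all, 38 of the 70 genes (54.3%) were listed at 0 in both GRO-seq libraries, where 25.2% of all genes and 20.9% of protein-coding genes were. In Sample3 alone 40 members were at 0, against 27% of all genes, and in the shallower Sample4 51, against 34.8%. A mean FPKM of 1 or more was reached by 5 of the 70 (7.14%), against 53.5% of all genes and 57.5% of protein-coding genes. The median member stood at 0 FPKM in each library, beside a median mean of 1.77 FPKM over all genes and 3.33 FPKM over protein-coding genes. The family's highest mean, 3.46 FPKM for Cpr97Ea, exceeded 54.5% of all genes and 50.4% of protein-coding genes.

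Short genes collect few reads, and the members were short, with a median span of 995.5 bp against 2017 bp for protein-coding genes. Among protein-coding genes with spans under 2000 bp, 33.6% were listed at 0 in both libraries and 48.8% had a mean FPKM of 1 or more. Of the 53 Cpr genes of that length, 32 (60.4%) were at 0 and 4 (7.55%) reached 1 FPKM. Of the 17 longer members 6 (35.3%) were at 0. For each of the 38 genes at 0, a limit of 3 reads over both libraries corresponds to between 0.0185 and 0.727 FPKM, so that all 38 limits were under 1 FPKM. The limit covers counting error only.

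**Figure D1:**
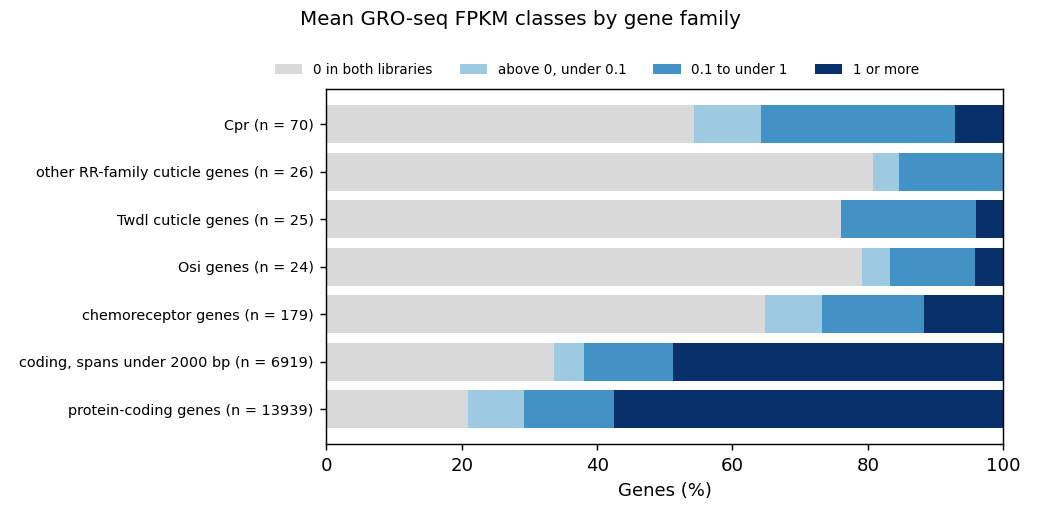
Stacked bars give the percentage of genes of each family in 4 classes of mean GRO-seq FPKM over both libraries (horizontal axis, percent of genes). In the Cpr bar 38 of 70 genes are at 0 in both libraries and 5 reach 1 FPKM, whereas 57.5% of protein-coding genes reach it.

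Pooled over the family, 205 reads fell on 134.5 kb of span in Sample3 and 87 in Sample4. This equals 0.232 FPKM in Sample3 (95% Poisson interval 0.201 to 0.266) and 0.261 FPKM in Sample4 (0.209 to 0.322). The pooled levels thus did not differ beyond counting error. The same sum over protein-coding genes gave 7.90 and 9.38 FPKM. The neighbours Cpr97Ea and Cpr97Eb held 41.0% of the family's reads in Sample3 and 50.6% in Sample4. Without them the remaining 68 genes came to 0.142 and 0.134 FPKM.

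**Figure D2:**
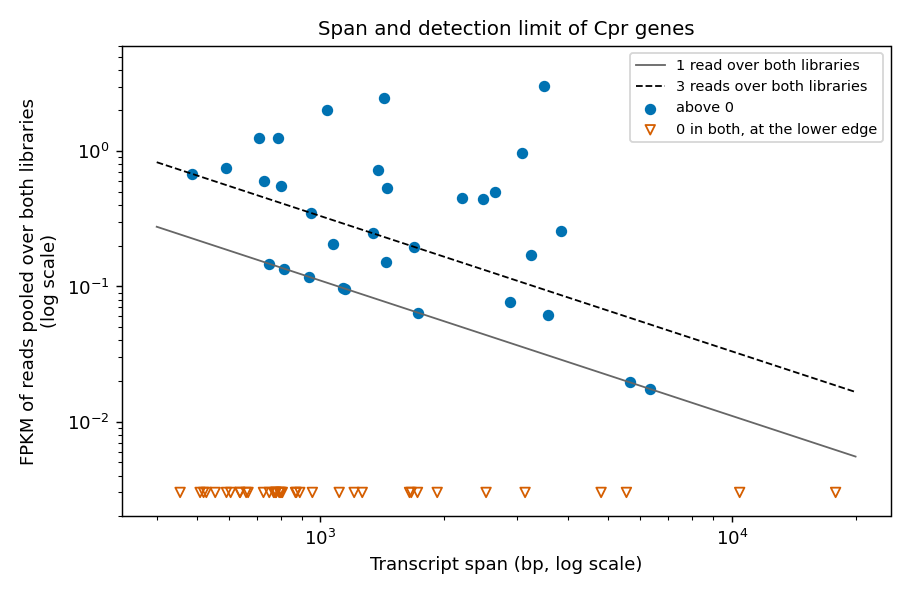
Each point is a Cpr gene, with its transcript span (horizontal axis, bp) and the FPKM of its reads pooled over both libraries (vertical axis), both on log scales. Lines mark the FPKM of 1 and of 3 pooled reads at each span, and open triangles at the lower edge are the 38 genes at 0, made up of 32 of the 53 genes with spans under 2000 bp and 6 of the 17 longer ones.

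Among the 32 members above 0, 17 had reads in both libraries, 13 in Sample3 alone and 2 in Sample4 alone. Of these 32, 16 rested on 1 to 3 reads in all, and 8 on 1 read. Only 4 members had 10 or more reads in Sample3, namely Cpr97Ea, Cpr97Eb, Cpr49Ac and Cpr51A, and 2 had so many in Sample4, Cpr97Ea and Cpr64Ad. For all 17 members with reads in both libraries the 95% Poisson intervals of the libraries overlapped, which alone does not show that the values agree. For Cpr64Ad they barely met, ending at 2.32 FPKM in Sample3 and beginning at 2.14 FPKM in Sample4.

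**Figure D3:**
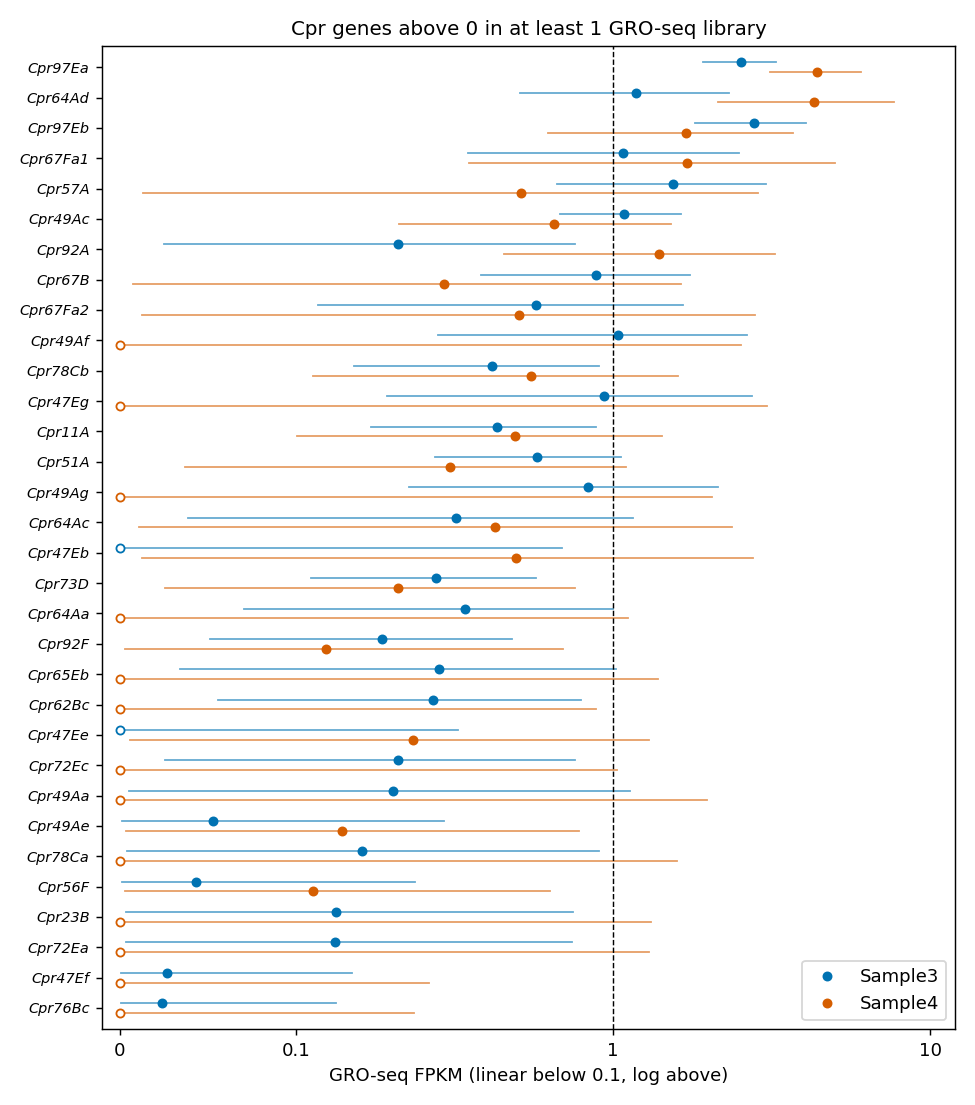
FPKM of the 32 Cpr genes above 0 in Sample3 (blue) and Sample4 (orange), with 95% Poisson intervals of the recovered reads as bars, open circles for 0 reads and a dashed line at 1 FPKM. The horizontal axis is linear below 0.1 and logarithmic above. Cpr97Ea lies above the line with its whole interval in each library, and most other intervals cross it or lie below it.

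Cpr97Ea was the highest member. It had 2.53 FPKM in Sample3 (58 reads) and 4.40 FPKM in Sample4 (38 reads), a mean of 3.46 ± 1.32 (SD, n = 2). Cpr97Eb had 2.77 FPKM (26 reads) and 1.70 FPKM (6 reads), a mean of 2.24 ± 0.759 (SD, n = 2). The order of the listed values differed between the libraries, but the genes' counting intervals overlapped in each, so no order is established. In Sample3 the intervals were 1.92 to 3.27 FPKM for Cpr97Ea and 1.81 to 4.06 FPKM for Cpr97Eb. The means did not differ beyond the spread between libraries. Both lie on the minus strand of arm 3R in dm3, Cpr97Ea at 22908852 to 22912341 and Cpr97Eb at 22915426 to 22916852, with 3085 bp between them.

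The genes directly beside them were almost without reads. CG14258, upstream on the opposite strand, was listed at 0 in both libraries, and CG14257, downstream on the opposite strand, had 0.088 FPKM in Sample3 and 0.116 in Sample4. The nearest upstream gene on their own strand was eater, which encodes a phagocytic receptor of hemocytes. It ends 4737 bp before Cpr97Eb begins and had 10.5 FPKM in Sample3 and 4.56 in Sample4. Whether polymerases that passed the end of eater contributed to the values of Cpr97Eb and Cpr97Ea was not tested. Neither gene had a start site nearby. The nearest lay 8578 bp upstream of Cpr97Eb, in replicate 2, and is the site 29 bp upstream of the annotated 5' end of eater.

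Cpr64Ad had 1.18 FPKM in Sample3 (8 reads) and 4.29 FPKM in Sample4 (11 reads), a mean of 2.73 ± 2.20 (SD, n = 2). It lies on the plus strand of 3L at 4215379 to 4216414, wholly inside the span of CG43367 on the same strand. CG43367 had 4.14 and 3.70 FPKM, and reads on Cpr64Ad lie within its span too. The other 3 members of this band lie inside CG43367 on its opposite strand and were lower. Cpr64Aa had 0.341 FPKM in Sample3 and 0 in Sample4, Cpr64Ac had 0.32 and 0.425, and Cpr64Ab was listed at 0 in both. The part of CG43367 transcripts in the value of Cpr64Ad was not tested.

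Cpr57A, just inside the threshold, had 1.54 FPKM in Sample3 (8 reads) and 0.512 in Sample4 (1 read), a mean of 1.03 ± 0.729 (SD, n = 2). It lies on the minus strand of 2R at 16436833 to 16437622 and shares its annotated 5' end with Obp57d, an odorant-binding protein gene whose span includes it. Obp57d had 0.870 FPKM (10 reads) and 0.231 FPKM (1 read), and any read on Cpr57A lies within its span too. CG18065 lies 217 bp upstream on the same strand and had 6.76 and 4.14 FPKM. Its part in the value of Cpr57A was not tested.

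Cpr67Fa1, on the plus strand of 3L at 10883090 to 10883800, had 1.07 FPKM in Sample3 (5 reads) and 1.71 in Sample4 (3 reads), a mean of 1.39 ± 0.450 (SD, n = 2). Its tandem neighbour Cpr67Fa2 had 0.569 FPKM (3 reads) and 0.504 FPKM (1 read). The names mark them as duplicates, and how reads fitting both copies were assigned is not given in the sources used here, so their separate values are uncertain. Cpr67Fb, the third gene of the row, was listed at 0 in both libraries. It is overlapped along its whole span on the opposite strand by the noncoding gene CR45171, which had 6.10 FPKM in Sample3 and 6.63 in Sample4.

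Just outside the threshold stood Cpr49Ac, with 1.08 FPKM in Sample3 (22 reads) and 0.652 in Sample4 (5 reads), a mean of 0.867 ± 0.303 (SD, n = 2). With 22 reads in Sample3 its value rests on more reads than those of Cpr64Ad, Cpr67Fa1 and Cpr57A. Cpr92A followed with 0.209 FPKM (2 reads) and 1.39 FPKM (5 reads), and Cpr67B with 0.884 FPKM (8 reads) and 0.293 FPKM (1 read). In Cpr92A the value was higher in Sample4 and in Cpr67B in Sample3, in each case with overlapping counting intervals.

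Start sites were called at few members. A same-strand site within 100 bp of the annotated 5' end was present at 2 of the 70 genes (2.86%), against 28.6% of all genes and 33% of protein-coding genes. These were Cpr11A and Cpr49Ag, both under 1 FPKM, so none of the 5 members of at least 1 FPKM had such a site. Of all 8888 genes of at least 1 FPKM 50% had a site, but 5188 of these genes had 10 FPKM or more, above every Cpr gene. Genes as low as these 5 members were not counted apart. Among genes under 1 FPKM, 3.95% had a site in either list, near the 2 of 65 Cpr genes (3.08%) in that class. A site had to exceed the GRO-seq control and the surrounding sequence by 4-fold and needed at least 20 reads in replicate 1 and 14 in replicate 2, and a start below these limits would not have been called.

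Cpr11A was the only member with a site in both lists, where 10.6% of all genes and 0.906% of genes under 1 FPKM had sites in both. It lies on the plus strand of the X chromosome at 12381003 to 12383481, and its site fell at 12381008 in replicate 1 and at 12381010 in replicate 2, 5 and 7 bp downstream of the annotated end. Its GRO-seq level was even between the libraries, 0.430 FPKM in Sample3 (7 reads) and 0.489 in Sample4 (3 reads), a mean of 0.460 ± 0.0417 (SD, n = 2). Replicate 1 held a further site on the opposite strand 826 bp upstream. The nearest genes are CG42258, 9473 bp upstream with 4.55 and 5.43 FPKM, and Lsp1alpha, a larval serum protein gene 843 bp downstream that was listed at 0 in both libraries.

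Cpr49Ag had its site in replicate 1 alone, at 8295298 on 2R, exactly the annotated base. It had 0.834 FPKM in Sample3 (4 reads) and was listed at 0 in Sample4. Its upstream neighbour Cpr49Af showed 1.03 FPKM (4 reads) and 0, without a site of its own. The noncuticle genes on either side, CG30048 and CG30050, were listed at 0 in both libraries.

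Apart from these 2 genes, no member had a site of either list inside its span, on either strand. The nearest same-strand site lay at a median of 12238 bp from the annotated 5' end of a member, against 3300 bp over all genes. For the 5 members of at least 1 FPKM the nearest lay between 357 and 13089 bp away. The closest was the replicate 2 site 357 bp upstream of Cpr57A, inside the span of CG18065. At Cpr49Ac, replicate 1 held a same-strand site 1830 bp upstream, between the end of CG8501 and the annotated start of Cpr49Ac. The table uses 1 transcript per gene, and RefSeq lists 6 for Cpr49Ac in a later assembly, so other annotated starts were not assessed.

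**Figure D4:**
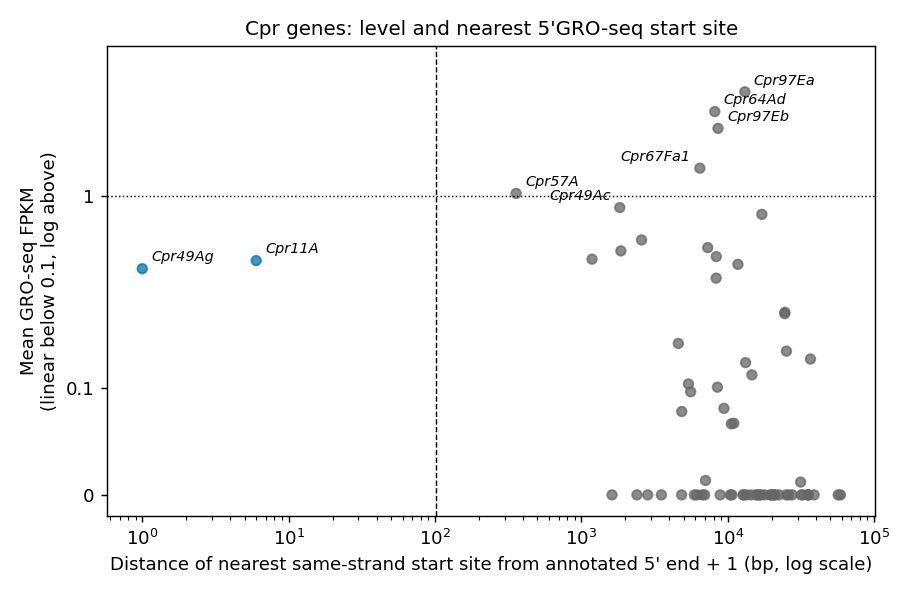
Each point is a Cpr gene, with the distance from its annotated 5' end to the nearest same-strand start site of either 5'GRO-seq list (horizontal axis, bp plus 1, log scale) and its mean GRO-seq FPKM (vertical axis, linear below 0.1 and logarithmic above). Dashed and dotted lines mark 100 bp and 1 FPKM. Cpr49Ag and Cpr11A, in blue, lie within 100 bp and under 1 FPKM, and no gene lies within 100 bp and above 1 FPKM.

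The family is strongly clustered in the genome. With neighbouring members at most 20 kb apart counted together, 49 of the 70 genes fell into 12 clusters of 2 to 8 genes, between 4.7 and 38.5 kb long, and 21 stood alone. Arm 3L held 35 members, 2R 21, 2L and 3R 5 each and the X chromosome 4. Of 37 adjacent pairs within clusters, 25 were on the same strand and 12 on opposite strands. Clustered and lone members were listed at 0 in like shares, 26 of 49 (53.1%) and 12 of 21 (57.1%).

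Clusters differed in how many of their genes had reads. In bands 65A (7 genes) and 50C (2 genes), every member was listed at 0 in both libraries. The Cpr65A cluster on 3L spans 30.3 kb and also contains 12 other genes, 10 of which, the Lcp65A genes and Acp65Aa, are larval and adult cuticle genes of the same type. Of these 12 all but Lcp65Aa were listed at 0, and Lcp65Aa had 0.305 FPKM in Sample3 (1 read) and 0 in Sample4. Cpr65Ax1 and Cpr65Ax2 overlap as annotated over 455 bp, nearly the whole span of Cpr65Ax1. The names mark them as duplicates, as they do Lcp65Ab1 and Lcp65Ab2. How reads fitting both copies were assigned is not given in the sources used here, so their values of 0 are uncertain.

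In the largest cluster, 8 genes of band 49A on 2R over 38.5 kb, 5 members were above 0 and 3 were not, with 32 reads in Sample3 and 6 in Sample4. Cpr49Ac, its highest member, held most of these. The cluster also contains CG8501, with 26.2 and 18.7 FPKM, 2440 bp upstream of Cpr49Ac on the same strand. Cpr49Ab and Cpr49Ad, the members on either side of CG8501 and Cpr49Ac, were listed at 0 in both libraries. In band 47E, 4 of 7 genes were above 0, led by Cpr47Eg with 0.935 FPKM in Sample3 (3 reads) and 0 in Sample4.

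The other clusters each had at least 1 gene at 0, except for band 97E. In 78C, Cpr78Cb led with 0.414 FPKM (6 reads) and 0.550 FPKM (3 reads). In the clusters of Cpr62Ba, Cpr65Ea, Cpr72Ea and Cpr76Ba no gene had more than 3 reads in Sample3 or any in Sample4. Their highest members were Cpr62Bc with 0.271 FPKM, Cpr65Eb with 0.283, Cpr72Ec with 0.21 and Cpr76Bc with 0.024 FPKM in Sample3.

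**Figure D5:**
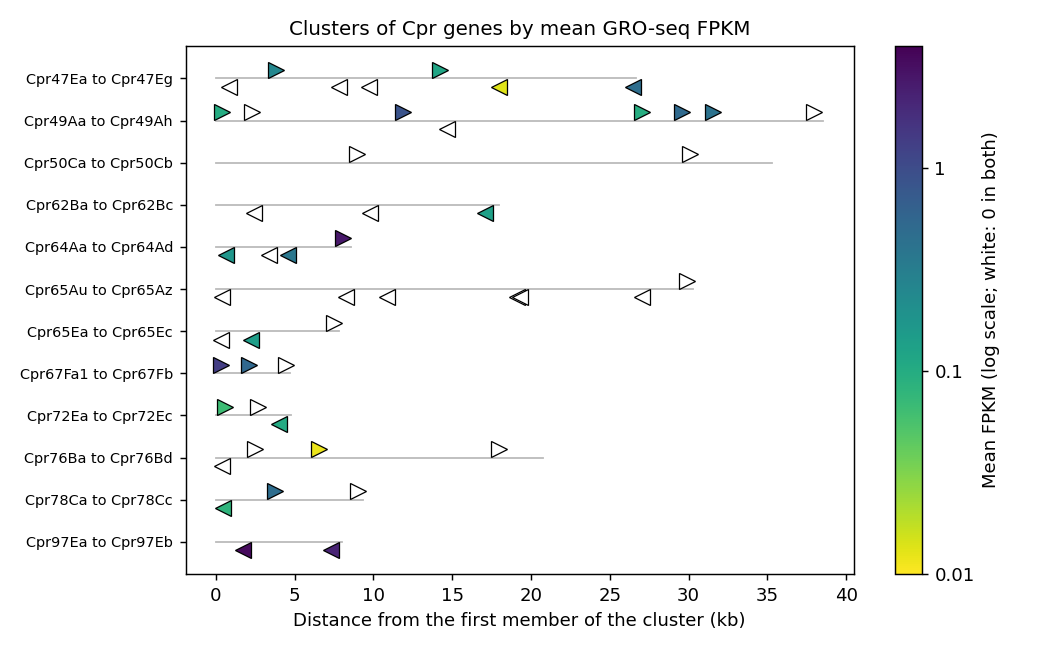
Each row is 1 of the 12 clusters of Cpr genes, with genes placed by distance from the first member (horizontal axis, kb). Triangles point in the direction of transcription and are coloured by mean GRO-seq FPKM on a log scale, white for 0 in both libraries. The rows Cpr50Ca to Cpr50Cb and Cpr65Au to Cpr65Az are all white, and both genes of the Cpr97Ea row are dark.

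Genes beside the members also tended to low values. The nearest gene without a Cpr symbol on each side of every member made 85 distinct genes. Among them 9 belong to the cuticle or chemoreceptor families compared below. They are Lcp65A genes and Edg78E, of the Rebers-Riddiford type too, and the chemoreceptor genes Or47a and Or49a. Pburs, beside Cpr35B, is on the list of tanning and sclerotisation genes described below. Of the 85, 40 (47.1%) were listed at 0 in both libraries and 25 (29.4%) had a mean FPKM of 1 or more. These shares lay between those of the family and those of all genes. The 85 include short and noncoding genes and were not matched for span or gene type. Among protein-coding genes with spans under 2000 bp the shares were 33.6% and 48.8%. Strong neighbours were present too, as for 8 members such a gene of at least 10 FPKM lay within 5000 bp. Of these 8, 3 were listed at 0 and none reached 1 FPKM, where 38 and 5 of all 70 members did. So few genes cannot be told from the family. Only the nearest gene on each side was considered, so strong genes behind a nearer one were missed. Aps, with 33.2 FPKM in Sample3 and 40.0 in Sample4, lies within 5000 bp of Cpr67Fa1, a member above 1 FPKM, but behind CR45171. Cpr31A, listed at 0 in both libraries, lies 965 bp from Pen, which had 55.8 FPKM in Sample3 and 63.4 in Sample4. Cpr67B lies 2992 bp from eIF-4E, the cap-binding translation factor, which had 35.0 and 43.2 FPKM. Cpr78Cb lies 4451 bp downstream of pzg, a chromatin-associated factor gene with 28.6 and 44.8 FPKM, and Cpr51A lies 1859 bp from Asx, a Polycomb group gene with 18.5 and 20.7 FPKM.

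Other cuticle families were likewise low, and the differences between families were not tested. Among 26 further genes of the Rebers-Riddiford type with Lcp, Ccp, Edg, Acp65A or Pcp symbols, 21 (80.8%) were listed at 0 in both libraries and none reached 1 FPKM. The highest were Edg78E, an ecdysone-dependent cuticle gene, with 0.492 FPKM in Sample3 and 1.31 in Sample4, Pcp with 0.386 and 0, and Lcp9 with 0.339 and 0. Of 25 Twdl genes, a separate class of cuticle proteins, 19 (76.0%) were at 0 and TwdlG alone reached 1 FPKM, with 0.881 and 1.56, followed by TwdlC with 0.756 and 1.00 and TwdlE with 0.264 and 0.14. Of 24 Osi genes, which encode membrane proteins of cuticle-secreting cells, 19 (79.2%) were at 0. Osi23 led with 2.04 and 2.08 FPKM, Osi19 had 0.913 and 0.441, with a site 3 bp from its 5' end in replicate 1, and Osi1 had 0 and 0.284.

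Chemoreceptor genes, expressed in sensory neurons, were taken as a further large group, and their clustering was not measured. Of 179, 116 (64.8%) were at 0 and 21 (11.7%) reached 1 FPKM. Their range went higher than that of the Cpr family, with Gr94a at 24.1 and 21.6 FPKM, Ir7g at 10.6 and 9.60, and Ir76a at 8.71 and 7.24.

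The enzymes and regulators around the cuticle were described from lists of genes, of which 59 of 62 symbols were found. Their counts at 1 FPKM or more stand beside 53.5% of all genes and 57.5% of protein-coding genes, and no difference was tested. Of 17 regulators of moulting and cuticle genes, whose median span was 18936 bp, 13 (76.5%) were at 1 FPKM or more. The ecdysone receptor gene EcR had 10.0 and 10.3 FPKM, its partner gene usp 22.2 and 32.1, and the early response gene Eip75B 24.8 and 28.1. Of 18 chitin synthesis and organisation genes 2 (11.1%) were at 1 FPKM or more. These were mmy, which makes the sugar precursor of chitin, with 18.3 FPKM in Sample3 and 9.13 in Sample4, and the chitinase gene Cht2 with 1.61 and 0.776. The chitin organiser gene knk had 1.29 and 0.612.

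In tanning and sclerotisation, 3 of 15 genes (20.0%) reached 1 FPKM. The highest was yellow-f, which encodes a dopachrome conversion enzyme of melanin synthesis, with 98.9 FPKM in Sample3 and 33.0 in Sample4. Pu, the gene of GTP cyclohydrolase, had 6.19 and 3.47, and y, a pigmentation gene, 3.05 and 1.88. Among 9 apical matrix genes of the zona pellucida type 2 (22.2%) reached 1 FPKM, led by dp with 6.65 and 6.89, followed by m with 2.70 and 1.64 and by neo with 1.37 and 0.485. Of 8 markers of epidermis and cuticle-forming tissue other than Osi genes, ovo reached 1 FPKM, with 6.82 and 10.6, and kkv, the chitin synthase gene, and grh were among the 7 that did not.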

How the data were processed

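The authors' GRO-seq table holds FPKM, per the file headers, with a single RefSeq transcript for each gene, on dm3 coordinates per the labels. Tools named in the submitters' processing notes, without a role, are HOMER 4.7, Bowtie2 2.1.0 and CASAVA 1.8.2. The FPKM columns carry no replicate number. Start sites were called by the authors per library with HOMER, per the file headers, and their score column is a constant.

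FPKM times span gave whole multiples of a step for 100% of 2529 and 3363 low values (at least 0.1 FPKM, spans over 300 bp, up to 20 reads, tolerance 0.1 read), and reads were recovered with it. The recovery was tested on simulated data. A site was the centre of its interval. Poisson intervals (95%) cover counting error only. With 2 libraries of 1 condition no test across samples was made, and gene lists are described by counts. All 70 members matched RefSeq by accession under the same symbol.

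Members and lists were chosen with earlier results of these data known. Named genes were all members of at least 1 FPKM or with a site, the next 3 members, the highest of each cluster of 3 or more, the 3 highest of each list, and genes overlapping or nearest a named member; other genes were named after their values were seen. Sequences were not analysed here. Analyses ran in Python 3.11.15 with pandas 2.3.3, scipy 1.17.1, numpy 2.4.6 and matplotlib 3.10.9.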

Additional observations from a re-analysis of the deposited data

How the results depend on the processing

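The number of Cpr genes listed at 0, 38, was 40 to 51 in 1 library alone and 59 of all 96 genes of the Rebers-Riddiford type. The number at a mean FPKM of 1 or more, 5, was 5 to 7 in 1 library alone. It was 10 at a threshold of 0.5 FPKM, 3 at 2 FPKM and 3 without members overlapping a gene on their strand. By a rule of at least 10 mean reads in place of FPKM, 3 members passed. They were Cpr97Ea, Cpr97Eb and Cpr49Ac, the last with a mean under 1 FPKM. The number with a start site within 100 bp was 1 without replicate 1 and 2 without replicate 2. Without Cpr97Ea and Cpr97Eb, an alternative chosen after seeing the data, the summed level fell to 0.142 FPKM in Sample3 and 0.134 in Sample4. In 1 library alone the share at 0 was 80.8 to 96.2% for the other genes of that type and 67.0 to 76.5% for chemoreceptor genes. The median of 0 and the clustering stayed within 1.5 times under their alternatives. Depth limits Sample4, where 3 reads exceeded 1 FPKM at 41 of the 70 genes, against 1 in Sample3. No paired analysis was possible because the GRO-seq columns carry no replicate number and no groups were compared by a test.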

Other observations

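Past the 3' ends of Cpr65Ec and Cpr50Cb, both listed at 0, start sites were called near the annotated starts of the genes that follow. These cases were picked after the data were seen, and how often this occurs over all genes was not counted. Cpr65Ec and the 2 other genes of its band had 2 reads between them in Sample3 and 0 in Sample4, yet both 5'GRO-seq lists held a site at 7087922 on 3L, past the end of Cpr65Ec on the same strand. It lies at the annotated start of form3, a formin gene with 0.753 FPKM in Sample3 and 0.951 in Sample4. Past the end of Cpr50Cb, which was listed at 0, replicate 1 held a site at 9692965 on 2R, upstream of the annotated start of stj, a calcium channel subunit gene with 5.59 and 5.40 FPKM, and more than 100 bp from it.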
